A study of Mus musculus with 8 samples.

Results

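The 9 genes described here, Sox9, Wt1, Gata4, Amh, Fshr, Clu, Rhox5, Cldn11 and Inha, are markers of the Sertoli cell, the somatic cell that supports germ cells inside the seminiferous tubule. They were taken by name, as the assembled transcripts whose reference gene is one of the 9, out of 27578 genes with a value in the series. A transcript of this kind was present for 8 of the 9 in at least 1 library, and none was present for Fshr. RNA had been sequenced from leptotene and zygotene spermatocytes, sorted by flow cytometry from the testes of 2-month C57BL/6 mice that were Bend2 wild type (WT) or Bend2 knockout (KO). Each of the 4 groups, WT and KO at either stage, held 2 libraries. All groups share the strain, the age and the library kit. The labels do not say which piece of Bend2 was removed, whether it was removed in germ cells alone, or how many mice gave each library.

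Sertoli cells line the tubule wall, enclose each spermatocyte in their cytoplasm and seal it off behind the blood-testis barrier. Their identity is held by transcription factors such as SOX9, WT1 and GATA4, and follicle-stimulating hormone and testosterone act on the germ cells largely through them. They secrete hormones, AMH and inhibin, and carrier proteins such as clusterin. A sort of spermatocytes selects germ cells, so the 9 genes are read here as markers of somatic RNA beside that of the germ cells. Whether spermatocytes hold some of this RNA themselves was not tested. In bulk RNA, fewer cells of a type and less RNA per cell cannot be told apart.

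The starts of a pair of genes are shown because they mark the extremes of what was assembled: Cldn11 had the same complete reference transcript in all 8 libraries, beginning at the start in the window, and Fshr had no reference transcript in any. The RefSeq table of promoters (GRCm38.p6, 250 bases before to 50 bases after a start, on the gene's strand) held 4 of the 9 genes, Inha, Cldn11, Fshr and Rhox5. The Cldn11 window lies on the plus strand at chr3:31149670-31149969 and the Fshr window on the minus strand at chr17:89200626-89200925. Capitals mark an E-box.
Cldn11: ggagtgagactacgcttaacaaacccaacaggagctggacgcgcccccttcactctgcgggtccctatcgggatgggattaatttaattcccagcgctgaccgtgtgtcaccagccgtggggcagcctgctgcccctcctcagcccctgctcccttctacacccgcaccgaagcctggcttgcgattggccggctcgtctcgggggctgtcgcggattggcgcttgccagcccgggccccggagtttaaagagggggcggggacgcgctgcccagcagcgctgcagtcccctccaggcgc
Fshr: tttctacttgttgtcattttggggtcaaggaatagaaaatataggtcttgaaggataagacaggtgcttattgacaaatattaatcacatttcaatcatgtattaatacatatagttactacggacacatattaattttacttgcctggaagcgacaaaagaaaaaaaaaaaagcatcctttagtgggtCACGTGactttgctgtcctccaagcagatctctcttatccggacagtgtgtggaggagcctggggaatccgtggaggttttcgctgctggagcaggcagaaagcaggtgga
The capitals in Fshr are the E-box CACGTG, whose first base is at position -61 from the start. USF proteins are known to bind an E-box in the proximal promoter of this gene. An E-box, searched as CACGTG or CACATG on both strands, was present in 20.4% of 32851 promoters of this length. The Cldn11 window matched none of the motifs searched on both strands. Beside the E-box these included SOX AACAAT (10.7% of promoters), the GATA factor letters AGATAA (11.2%), SF1 AAGGTCA (4.72%) and the cAMP response TGACG (20.8%). The Rhox5 window held a SOX match, but that window is far upstream of the start of the Rhox5 transcripts in these libraries. The Inha window starts inside the gene.

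Values are scaled TPM, the level of a transcript relative to its length and to all transcripts of the library, divided by a size factor and summed over the reference transcripts of a gene. The libraries implied between 6.82 and 9.45 aligned gigabases. Per library, between 9.90% and 24.0% of TPM lay in unannotated single-exon transcripts. That share was 22.3% to 24.0% in 1 library of each group (WT leptotene replicate 2, KO leptotene replicate 1, WT zygotene replicate 2 and KO zygotene replicate 1) and 9.90% to 14.4% in the other. Markers of leptotene and zygotene spermatocytes, 12 genes that include Sycp3, Stra8 and Dmc1, were present and summed to between 332 and 840 per library. No transcript was named Bend2. Gm15262, taken as the targeted locus although no table used here gives its identity, measured 15.9 and 0 in WT leptotene, 0.38 and 2.13 in KO leptotene, with 15.1 and 0.26 in WT zygotene against 10.5 and 18.0 in KO zygotene. The genotypes overlapped at both stages. With unannotated transcripts added it lay between 15.1 and 40.5 in all libraries, so this locus does not check the genotype labels.

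RNA of the Sertoli genes was present in every library at a low level. The 9 genes summed to between 105 and 252 scaled TPM, which was 0.0166% to 0.0482% of the TPM of all reference transcripts. Clu alone made up 66.6% to 76.7% of that sum. By library the sum was 105 and 195 in WT leptotene, 179 and 139 in KO leptotene, with 129 and 252 in WT zygotene against 113 and 119 in KO zygotene. WT zygotene replicate 2 was the highest of the 8. Both KO zygotene libraries lay below both WT zygotene and both KO leptotene libraries, while WT and KO overlapped at leptotene. No test was made on this sum.

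Of the transcription factors, Sox9 (chr11:112782224-112787760), which drives and maintains Sertoli fate, was listed at 0 in WT leptotene replicates 1 and 2, at 1.60 and 0 in KO leptotene, with 1.53 and 2.51 in WT zygotene against 0.56 and 1.75 in KO zygotene. The 3 libraries listed at 0 were not without Sox9 RNA. Each held unannotated pieces of the gene on the same strand, 5 in all, and with such pieces added Sox9 measured 2.48 and 6.00 in WT leptotene and 1.55 and 7.59 in KO leptotene. A sum of TPM over short pieces can exceed the level of a whole transcript. With bases covered by any transcript of the gene spread over its full exon length, a measure chosen after values were seen, Sox9 lay between 0.72 and 3.70 in all 8 libraries.

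Wt1 (chr2:105126529-105173616), a zinc finger factor that Sertoli cells need to keep their identity, was above 0 in every library. It measured 3.83 and 5.37 in WT leptotene, 10.6 and 1.35 in KO leptotene, with 8.04 and 15.0 in WT zygotene against 4.81 and 10.8 in KO zygotene. The 2 KO leptotene libraries enclosed both WT leptotene values, and the zygotene genotypes overlapped too. With unannotated pieces added, the low KO leptotene replicate 2 measured 9.42 and the spread over the 8 libraries shrank from 11.1-fold to 3.26-fold. Protein-coding transcripts held 89.6% of the reference TPM of Wt1, and transcripts with a retained intron the rest. The other members had 99.2% (Clu) or 100% in protein-coding transcripts.

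Gata4 (chr14:63198922-63271692, minus strand), a zinc finger factor of Sertoli and Leydig cells, measured 4.32 and 12.3 in WT leptotene, 0 and 4.08 in KO leptotene, with 4.25 and 14.5 in WT zygotene against 7.13 and 4.74 in KO zygotene. The library listed at 0, KO leptotene replicate 1, held 3 unannotated pieces of Gata4 and measured 12.5 with them. Rhox5 (chrX:37804842-37808876), an X-linked homeobox gene that androgen switches on in Sertoli cells, measured 1.42 and 2.76 in WT leptotene, 0 and 2.79 in KO leptotene, with 2.77 and 0.85 in WT zygotene against 2.22 and 1.25 in KO zygotene. Again the 0 was in KO leptotene replicate 1, where 1 unannotated transcript brought Rhox5 to 3.05. With unannotated transcripts added, the leptotene genotypes overlapped for Gata4, and both KO leptotene values of Rhox5 (3.05 and 2.98) lay above both WT values (1.56 and 2.77). By covered bases Rhox5 overlapped, at 2.22 and 4.16 in WT leptotene against 2.34 and 4.40 in KO leptotene. Gata4 did not, at 7.29 and 16.0 against 6.80 and 5.63. The share of all genes with such an order was not computed for these 2 measures.

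Of the hormones, Amh (chr10:80805243-80807648), the anti-Müllerian hormone that Sertoli cells make most before puberty, was the most uneven member. Its reference transcript measured 0 and 1.36 in WT leptotene, 0 and 0.09 in KO leptotene, with 2.73 and 4.92 in WT zygotene against 0 and 0 in KO zygotene. It was thus above 1 only in 3 WT libraries, and it entered the test through these. In all 4 libraries listed at 0, unannotated Amh pieces on the same strand were assembled. With pieces added the values were 3.33 and 1.37 in WT leptotene, 25.5 and 0.09 in KO leptotene, with 5.85 and 4.87 in WT zygotene against 4.42 and 1.52 in KO zygotene. KO leptotene replicate 1, listed at 0 by the reference transcript, was then the highest library, from 3 pieces, and by covered bases it was also the highest, at 19.2.

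Inha (chr1:75507077-75510366), the alpha subunit of inhibin, which lowers follicle-stimulating hormone, measured 11.1 and 24.4 in WT leptotene, 15.8 and 12.3 in KO leptotene, with 10.6 and 21.2 in WT zygotene against 15.4 and 2.77 in KO zygotene. The genotypes overlapped at both stages. The low KO zygotene replicate 2 held an unannotated Inha transcript and measured 12.4 with it, inside the range of the other 7 libraries. The 2 exons of Inha had a median coverage of 43.3 and 44.1 reads per base, and differed most in WT leptotene replicate 1, by 2.50-fold.

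The hormone receptor Fshr (chr17:88984952-89200675, minus strand), through which follicle-stimulating hormone acts on Sertoli cells, had no reference transcript in any library. Unannotated pieces of it were assembled in 5 libraries, 1 in each. With these Fshr measured 1.71 and 0.68 in WT leptotene, 1.32 and 0.79 in KO leptotene, with 0 and 0.52 in WT zygotene against 0 and 0 in KO zygotene. Pieces were thus present in all 4 leptotene libraries and in 1 of the 4 zygotene libraries. Of the 5 pieces 4 had more than 1 exon. They were covered at 2.00 to 4.90 reads per base, and a value of 0 does not show that Fshr RNA was absent.

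Clu (chr14:65968483-65981547), which encodes the secreted chaperone clusterin, was the most abundant member in each library. It measured 74.7 and 132 in WT leptotene, 137 and 105 in KO leptotene, with 87.9 and 171 in WT zygotene against 75.2 and 89.2 in KO zygotene. The lowest Clu value was above the highest value of any other member. A 9-exon coding transcript held 98.5% of its reference TPM. Its exon 1 was covered at a median of 18.1 reads per base and exon 4 at 559, so the 5′ exon was thinly covered in a transcript otherwise covered throughout.

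Cldn11 (chr3:31149920-31164324), the claudin that forms the tight junction strands of the blood-testis barrier, measured 9.73 and 16.7 in WT leptotene, 13.7 and 13.2 in KO leptotene, with 11.6 and 21.8 in WT zygotene against 7.70 and 8.72 in KO zygotene. Both KO zygotene libraries lay below the other 6. Cldn11 had no unannotated piece in any library, and its 3 exons were each covered at 20.5 or more reads per base. For Clu and Cldn11 the values therefore rest on reference transcripts found in all 8 libraries.

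**Figure D1:**
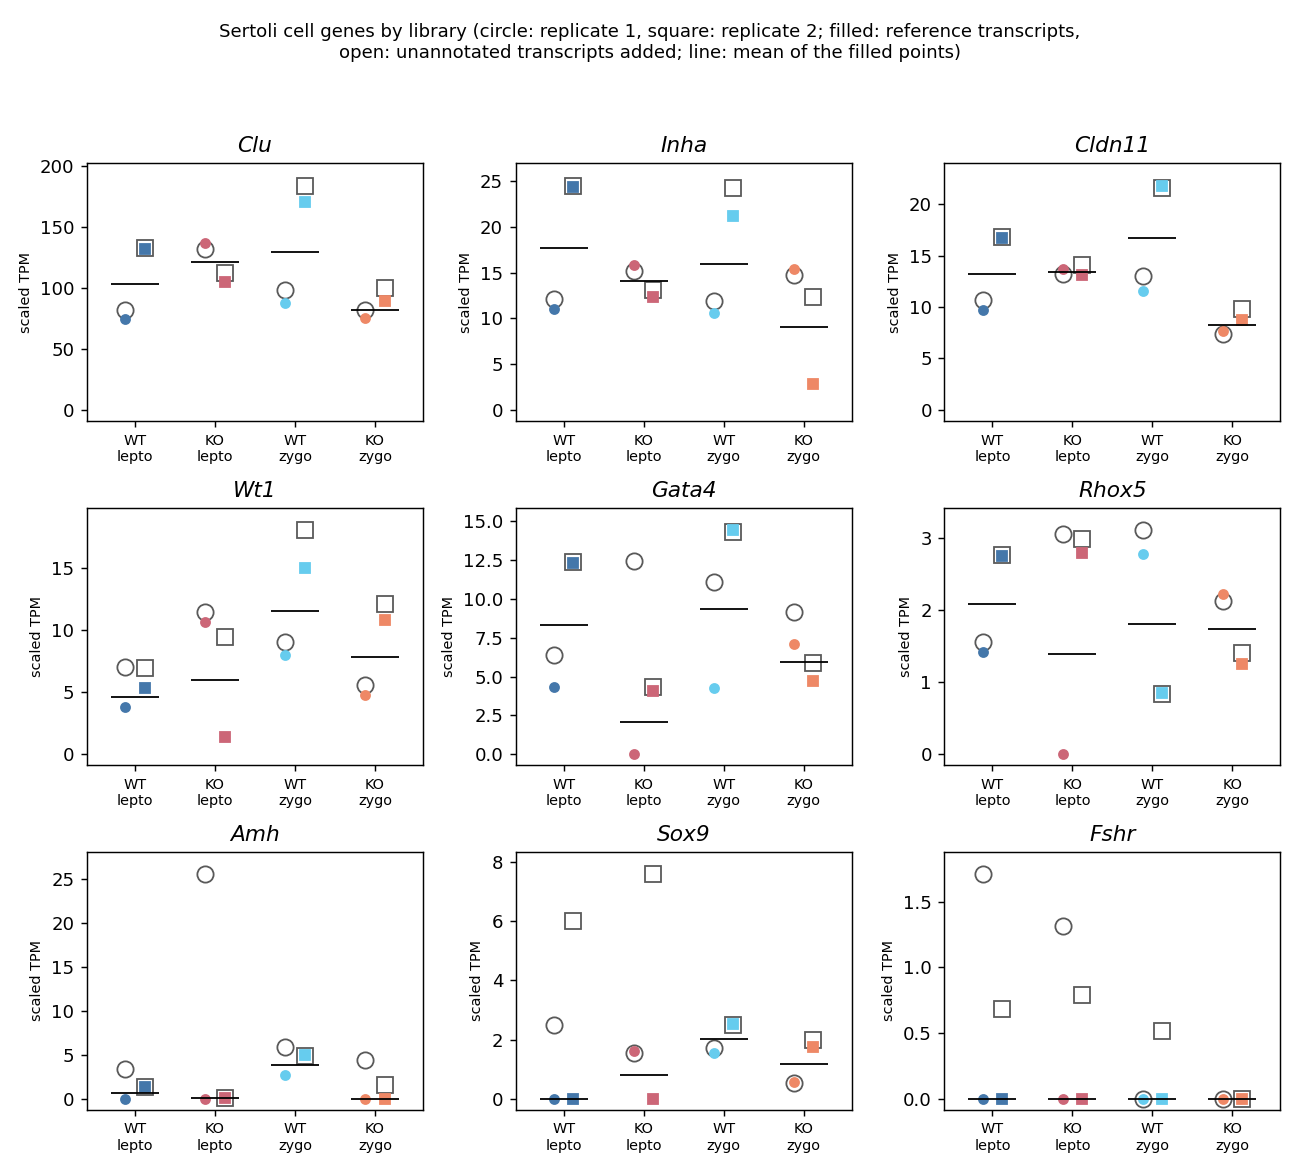
Scaled TPM of each of the 9 genes (y axis, from 0) in the 2 libraries of each group (x axis), with filled points for reference transcripts, open points with unannotated transcripts added, and a line at the mean of the filled points. Open and filled points lie close together for Clu and Cldn11, while for Amh, Sox9 and Fshr most libraries at 0 hold RNA in unannotated transcripts; the open point of Amh in KO leptotene replicate 1 is at 25.5.

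The listed level leaves out unannotated transcripts, and the part left out differed between the genes. Over the 8 libraries the unannotated share of a gene's deposited TPM was 100% for Fshr, 77.9% for Amh, 65.0% for Sox9, 29.3% for Gata4, 21.7% for Wt1, 16.1% for Rhox5, 10.3% for Inha, 2.71% for Clu and 0% for Cldn11. Of the 36.3 unannotated TPM of Amh, 24.4 came from 1 library, KO leptotene replicate 1. The 3 genes with the lowest reference level had the 3 highest shares. The reference level is part of the share, so this likeness of order is fixed in part. Reference transcripts of Amh, Sox9 and Rhox5 never passed 18.9, 9.64 and 8.57 reads per base, against at least 235 for Clu and 29.8 for Cldn11.

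**Figure D2:**
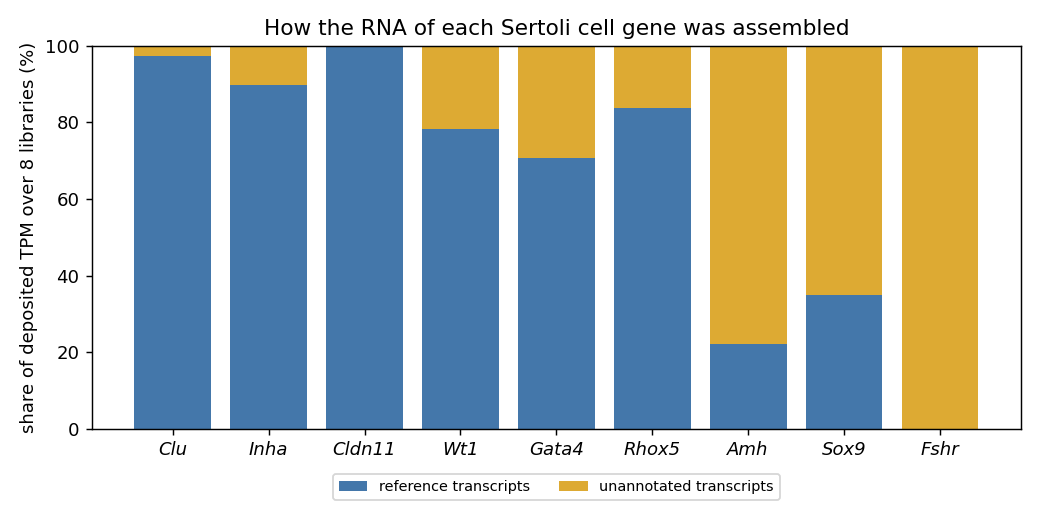
Percent of each gene's deposited TPM, summed over the 8 libraries (y axis), that lay in reference transcripts (lower bar) or in unannotated transcripts of the same gene and strand (upper bar), with genes ordered by reference level. The unannotated share is 0% for Cldn11, 2.71% for Clu, 77.9% for Amh and 100% for Fshr. Of the 36.3 unannotated TPM of Amh, 24.4 lay in KO leptotene replicate 1.

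In order of their mean over all libraries, the reference levels were Clu 109, Inha 14.2, Cldn11 12.9, Wt1 7.49, Gata4 6.41, Rhox5 1.76, Amh 1.14, Sox9 0.996 and Fshr 0. TPM is per transcript length, so these levels compare between genes. Clu stood apart from Inha without overlap over the 8 libraries. The ranges of every other pair of neighbours above Fshr overlapped, so their order is not fixed beyond the spread. With unannotated pieces Amh averaged 5.87 and Sox9 3.04, and both stood above Rhox5, at 2.23. Without KO leptotene replicate 1 the Amh mean over the other 7 libraries was 3.06.

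To ask whether loss of Bend2 went with another level of the Sertoli genes, KO was compared with WT at each stage. At leptotene none of the 8 genes tested passed an adjusted p under 0.05 (limma with Benjamini-Hochberg adjustment over 16929 genes), where 1.12% of all genes did, and none passed an unadjusted p under 0.05 either, where 17.4% of all genes did. Differences are those of log2(scaled TPM + 1), so that those of low genes come out too small, and are given with their standard error. The labels do not say that the libraries of a group came from different mice, so a p-value here measures only how far such libraries lay apart, which may be technical. Of the 8 differences 3 were above 0 and 5 below, and their median was -0.16, against -0.11 over all genes tested.

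Clu measured 103 ± 40.5 in WT leptotene and 121 ± 22.6 in KO leptotene (mean ± SD, n = 2), a difference of 0.27 ± 0.41 with a 95% interval of -0.69 to 1.23 (limma, adjusted p = 0.780). Cldn11 measured 13.2 ± 4.96 and 13.4 ± 0.39, a difference of 0.07 ± 0.43 (interval -0.94 to 1.07). For these 2 genes, whose differences were 0.22 and 0.02 with unannotated transcripts added, the intervals leave room for a change of about 1 on this scale. Gata4 was the member at leptotene whose libraries did not overlap, lower in KO, where 26.1% of all genes did the same. None lay apart and higher in KO, as 19.1% of all genes did. The Gata4 difference of -1.90 ± 0.93 (limma, adjusted p = 0.359) was -0.23 with unannotated pieces added, under which the libraries overlapped. By covered bases it was -0.72 ± 0.41, and the libraries did not overlap (7.29 and 16.0 in WT, 6.80 and 5.63 in KO). The reference difference was -0.73 without KO leptotene replicate 1, -1.24 without WT leptotene replicate 2 and -3.07 without KO leptotene replicate 2. The others were between -0.63 (Rhox5) and 0.69 (Sox9), with limma adjusted p-values from 0.597 to 0.980. The signs of Wt1, Amh, Rhox5 and Sox9 were the opposite with unannotated pieces added.

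At zygotene none of the 8 passed an adjusted p under 0.05 (limma), where 1.31% of all genes did, and Amh alone passed an unadjusted p under 0.05, where 16.2% of all genes did. The differences were below 0 for 7 genes and above 0 for Rhox5, with a median of -0.56, against -0.14 over all genes tested. The 2 comparisons of genotype use different libraries, but share 1 estimate of the spread. Both WT zygotene values of Amh and of Cldn11 lay above both KO values, an order that 27.6% of all genes showed. No member had the opposite order, which 19.7% of all genes showed.

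For Amh, listed at 0 in both KO zygotene libraries, the fitted difference was -2.23 ± 0.52, with an unadjusted p of 0.0034 and an adjusted p of 0.0915 (limma). Because the KO group is at 0, this size depends on the pseudocount, and it was -5.24 with 0.1 and -0.81 with 5 added in place of 1. With unannotated pieces added it was -0.78 ± 1.27 (limma, adjusted p = 0.818). Amh RNA was then present in both KO libraries, at 4.42 and 1.52, still under the WT values of 5.85 and 4.87. By covered bases the difference was -2.18 ± 1.17 (limma, adjusted p = 0.324). The WT zygotene values were then 8.15 and 7.24, against 1.32 and 0.59 in KO zygotene. The adjusted p ranged from 0.0655 to 0.818 over all the settings tried.

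Cldn11 measured 16.7 ± 7.23 in WT zygotene and 8.21 ± 0.72 in KO zygotene, a difference of -0.88 ± 0.43 with an interval of -1.89 to 0.12 (limma, adjusted p = 0.371). Without WT zygotene replicate 2 it was -0.45. With unannotated transcripts in the fit, Cldn11 had an unadjusted p of 0.039 and an adjusted p of 0.272 (limma). Clu measured 129 ± 58.6 and 82.2 ± 9.88, a difference of -0.58 ± 0.41 with an interval of -1.54 to 0.39 (limma, adjusted p = 0.554). Without WT zygotene replicate 2 it was -0.10. Inha, at -1.03 ± 0.75 (limma, adjusted p = 0.562), was at -0.31 with unannotated pieces added and at 0.03 without KO zygotene replicate 2. Wt1, Sox9, Gata4 and Rhox5 differed by -0.54, -0.53, -0.40 and 0.03, each by less than its standard error.

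**Figure D3:**
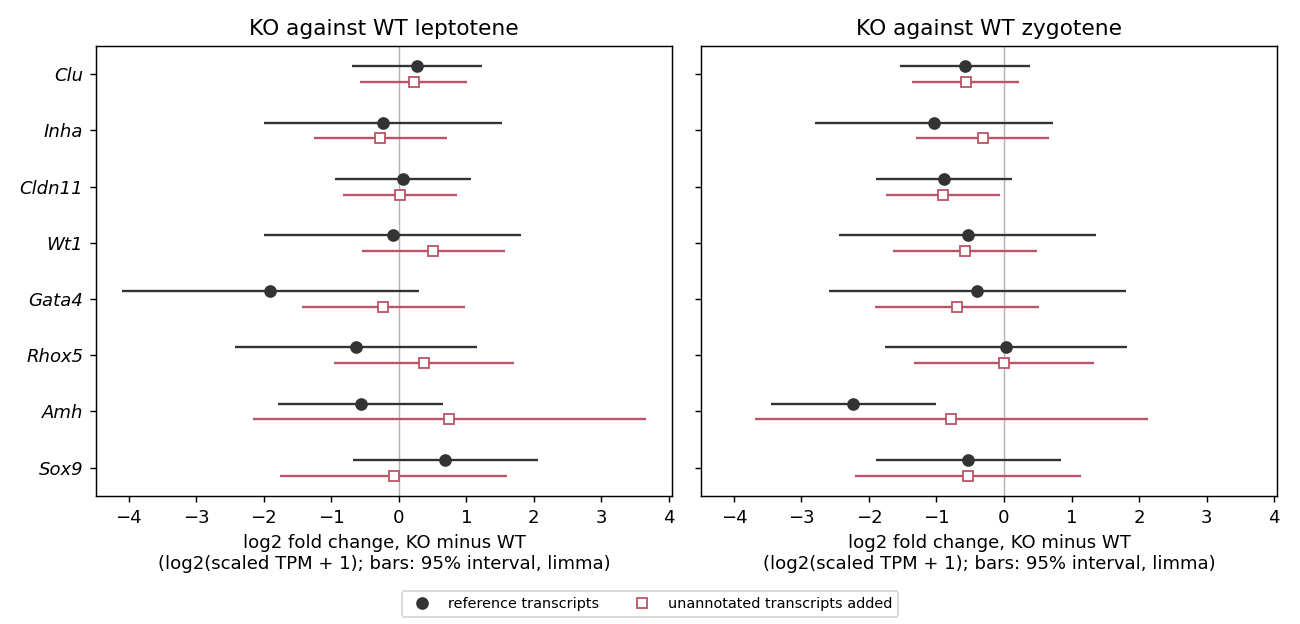
Difference of KO from WT at leptotene (left) and zygotene (right) for the 8 genes tested, on the log2(scaled TPM + 1) scale (x axis), with 95% intervals from limma for reference transcripts (filled circles) and with unannotated transcripts added (open squares). The interval of Amh at zygotene, -3.46 to -1.01, leaves out 0 for reference transcripts and spans it, at -3.69 to 2.13, with unannotated transcripts added.

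A single WT library weighed on the zygotene differences of Clu and Cldn11, as given above. WT zygotene replicate 2 was the highest of the 8 libraries for 6 of the 8 genes with a reference transcript, Amh, Cldn11, Clu, Gata4, Sox9 and Wt1. With unannotated transcripts added it was the highest for 4 of the 9, Cldn11, Clu, Gata4 and Wt1. It is 1 of the 4 libraries with the higher share of unannotated single-exon TPM. In WT leptotene 7 of the 9 genes were higher in the library of that kind and none lower. In WT zygotene 7 were higher and 1 lower, in KO leptotene 5 higher and 3 lower, and in KO zygotene 3 higher and 4 lower. With unannotated transcripts added the counts were 6 higher and 3 lower in WT leptotene, 7 and 2 in WT zygotene, 7 and 2 in KO leptotene, and 4 and 4 in KO zygotene. Compared within libraries of 1 kind, 1 against 1 with no test, the zygotene difference was below 0 for 7 genes and above 0 for 1 among higher-share libraries, and below 0 for 4 and above 0 for 4 among lower-share libraries. For Clu it was -1.17 in the first kind and 0.02 in the second, and for Cldn11 -1.39 and -0.37. At leptotene the same counts were 5 below and 3 above, and 2 below and 5 above. The shares of all genes with these orders were not computed, so the counts do not set the members apart from other genes.

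Between stages, zygotene was compared with leptotene within each genotype. In WT none of the 8 passed an adjusted p under 0.05 (limma), where 0.0% of all genes did. Amh and Sox9 passed an unadjusted p under 0.05, as 5.21% of all genes did. Amh was higher in zygotene by 1.61 ± 0.52 (limma, adjusted p = 0.677), and by 0.99 ± 1.27 with unannotated pieces added. Leaving out WT leptotene replicate 1 gave 0.99. Sox9, listed at 0 in both WT leptotene libraries, was higher by 1.58 ± 0.58 (limma, adjusted p = 0.823), a size that depends on the pseudocount. With unannotated pieces added the difference was -0.68, from 2.48 and 6.00 in leptotene and 1.72 and 2.49 in zygotene. By covered bases it was 0.70 ± 0.54, from 0.72 and 2.53 in leptotene and 2.40 and 3.70 in zygotene. By reference transcripts Sox9, Wt1 and Amh did not overlap between the stages and were higher in zygotene, an order shown by 16.4% of all genes. None had the reverse order, shown by 14.6%.

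In KO none of the 8 passed an adjusted p under 0.05 (limma), where 0.0118% of all genes did, nor an unadjusted p under 0.05, where 5.35% did. Clu and Cldn11 did not overlap and were lower in zygotene, as were 14.0% of all genes, and Gata4 was higher, as were 15.2%. The Gata4 order depended on the measure. Its difference was 1.60 ± 0.93 by reference transcripts, and -0.024 with unannotated pieces added, when the stages overlapped. By covered bases it was 0.49 ± 0.41. The values were then 6.80 and 5.63 in KO leptotene against 11.5 and 7.18 in KO zygotene, without overlap. The difference was -0.55 ± 0.41 for Clu and -0.65 ± 0.43 for Cldn11. The interaction of genotype and stage tests whether the difference of KO from WT was another at zygotene than at leptotene. No member passed it at an adjusted p under 0.05 (limma), where 0.0118% of all genes did, or at an unadjusted p under 0.05, where 4.24% did. Amh had an interaction of -1.67 ± 0.73 (limma, unadjusted p = 0.056). Amh and the other members were thus not shown to respond to genotype in another way at one stage than at the other.

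A further 24 genes expressed in Sertoli cells were examined as a group: growth factors (Kitl, Gdnf, Dhh), nuclear receptors and other regulators (such as Nr5a1, Nr0b1, Sox8, Gata1, Dmrt1), secreted proteins (Trf, Inhbb, Cst9, Cst12, Defb36), junction and skeleton genes (Gja1, Vim, Krt18, Espn) and others (Amhr2, Rhox8, Tsx, Aard, Ctsl, Mro). By reference transcripts 13 were above 0 in all libraries, 9 in some, and Gdnf and Krt18 in none. With unannotated pieces 22 were above 0 in all libraries. Their sum ran from 208 to 449 in WT leptotene, 281 to 366 in KO leptotene, 323 to 547 in WT zygotene and 276 to 282 in KO zygotene, highest again in WT zygotene replicate 2, and both KO zygotene libraries again lay below both WT zygotene ones. None of the 21 tested passed an adjusted p under 0.05 in any of the 5 comparisons (limma).

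At an unadjusted p under 0.05, Dmrt1, Trf and Vim passed in KO against WT leptotene, and Dmrt1, Kitl, Rhox8 and Vim in KO against WT zygotene. These are 3 and 4 of the 21, where 17.4% and 16.2% of all genes passed. Trf, the iron carrier transferrin, overlapped between the genotypes at leptotene with unannotated transcripts added, with WT values of 5.96 and 20.1 against KO values of 18.5 and 11.1. Kitl overlapped at zygotene in the same way, with WT values of 13.8 and 13.4 against KO values of 18.0 and 4.81. Dmrt1, Rhox8 and Vim did not overlap by that measure in the comparisons of genotype that they passed. The share of all genes without overlap was not computed for that measure. Rhox8 also passed between stages in KO and in the interaction. The median difference of the 21 was 0.15 at leptotene and -0.66 at zygotene, against -0.11 and -0.14 over all genes tested, with 9 and 17 of the 21 below 0. By reference transcripts 6 did not overlap and were lower in KO leptotene, and 3 were higher, where 26.1% and 19.1% of all genes did so. At zygotene 10 were lower in KO without overlap and 1 was higher, where 27.6% and 19.7% of all genes did so. The 4 most abundant genes of the further list were Vim, Ctsl, Dmrt1 and Aard. Vim, an intermediate filament gene of Sertoli and many other somatic cells, measured 40.5 and 101 in WT leptotene, 24.8 and 22.1 in KO leptotene, with 97.0 and 170 in WT zygotene against 74.3 and 38.1 in KO zygotene, without overlap between genotypes and lower in KO at both stages, as were 26.1% of all genes at leptotene and 27.6% at zygotene. Dmrt1, a regulator that spermatogonia share with Sertoli cells, had the opposite order at both stages, shown by 19.1% and 19.7% of all genes, with 25.9 and 43.3 in WT leptotene and 91.7 and 58.8 in KO leptotene, and with 21.1 and 27.4 in WT zygotene against 50.7 and 74.3 in KO zygotene. Ctsl, a protease gene, lay between 52.5 and 95.7 over the 8 libraries and Aard between 18.3 and 58.3.

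Genes with the most similar pattern were then listed, by the root mean square difference of log2 values centred on each gene's own mean over the 8 libraries. For Clu, among 13162 named genes tested, these were Epb41l4aos (0.152), Cldn11 (0.161), Gja1 (0.170), Tpbgl (0.174) and Gatm (0.178), against a root mean square of 0.406 for the Clu pattern itself. Cldn11 and Gja1, the gap junction gene connexin 43, are thus among the 5 nearest to Clu. The other members tested were far from it: Inha ranked 4834, Sox9 4924, Wt1 5968, Amh 6917, Rhox5 7688 and Gata4 10553. For the mean of the 8 members tested the nearest included Idh1 (0.123), Txndc5 (0.137), Megf6 (0.139) and Ctsz (0.164). These likenesses rest on 8 libraries prepared together, and they are descriptions.

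Markers of other cell types did not all move with the Sertoli genes. Macrophage markers, with all 6 above 0 in some library, summed to 79.5 to 286 in WT and 7.20 to 24.3 in KO. With unannotated transcripts added the ranges were 110 to 301 and 25.3 to 51.3. By reference transcripts Aif1 alone held 69.5 of the 79.5 in WT leptotene replicate 1. In WT zygotene replicate 1 it held 63.0 of 82.1. The 2 libraries with the highest macrophage sums, WT zygotene replicate 2 and WT leptotene replicate 2, were also the 2 highest for the Sertoli sum by reference transcripts. KO leptotene replicate 1, next for the Sertoli sum at 179, had a macrophage sum of 13.3. With unannotated transcripts its Sertoli sum of 216 was above the 204 of WT leptotene replicate 2, at a macrophage sum of 28.2. Csf1r, Adgre1, Cd68 and C1qa were listed at 0 in the 4 KO libraries, but unannotated transcripts were present there for Csf1r (5.06 to 10.6), Adgre1 (2.59 to 6.02) and C1qa (0.49 to 3.19) in each, and for Cd68 in the 2 KO zygotene libraries. By that measure Csf1r was 4.63 and 4.89 in replicate 1 of WT leptotene and WT zygotene, below its KO values. Adgre1 and Cd68 also overlapped between the genotypes, while Aif1, C1qa and C1qb were lower in KO without overlap. The share of all genes with such an order was not computed for this measure. A value of 0 was not particular to KO. It was also listed for C1qa in every WT library but WT zygotene replicate 2, for Adgre1 in replicate 1 of both WT groups, and for Cd68 in WT leptotene replicate 1. Round spermatid markers (all 6 above 0) summed to 4090 to 8637 in WT and 532 to 1356 in KO, without overlap, whereas the Sertoli sums of the 4 WT and 4 KO libraries overlapped.

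Leydig markers (4 of 6 with a reference transcript, all but Hsd3b1 and Lhcgr) summed to 25.7 to 161 and were higher in the higher-share library of every group, led by Insl3. With unannotated transcripts they summed to 49.6 to 211, again higher in those libraries, with Hsd3b1 above 0 in all 8 libraries and Lhcgr in 7. Peritubular myoid markers (all 5 above 0 in some library) summed by reference transcripts to 0.00023 and 2.88 in KO leptotene, and to between 28.2 and 162 in the other groups. With unannotated transcripts the KO leptotene sums were 24.3 and 15.9, still below the 65.1 to 194 of the other groups, with Tagln at 0 in both. Endothelial markers summed to 0.84 to 39.1 by reference transcripts, and to 33.7 to 69.4 with unannotated transcripts, when Kdr, otherwise listed at 0 in 7 libraries, was above 0 in all. Spermatogonial markers summed to 60.4 to 136 in WT and 208 to 305 in KO. The share of these cell types, or of the kind of library, in the values of the Sertoli genes was not tested.

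**Figure D4:**
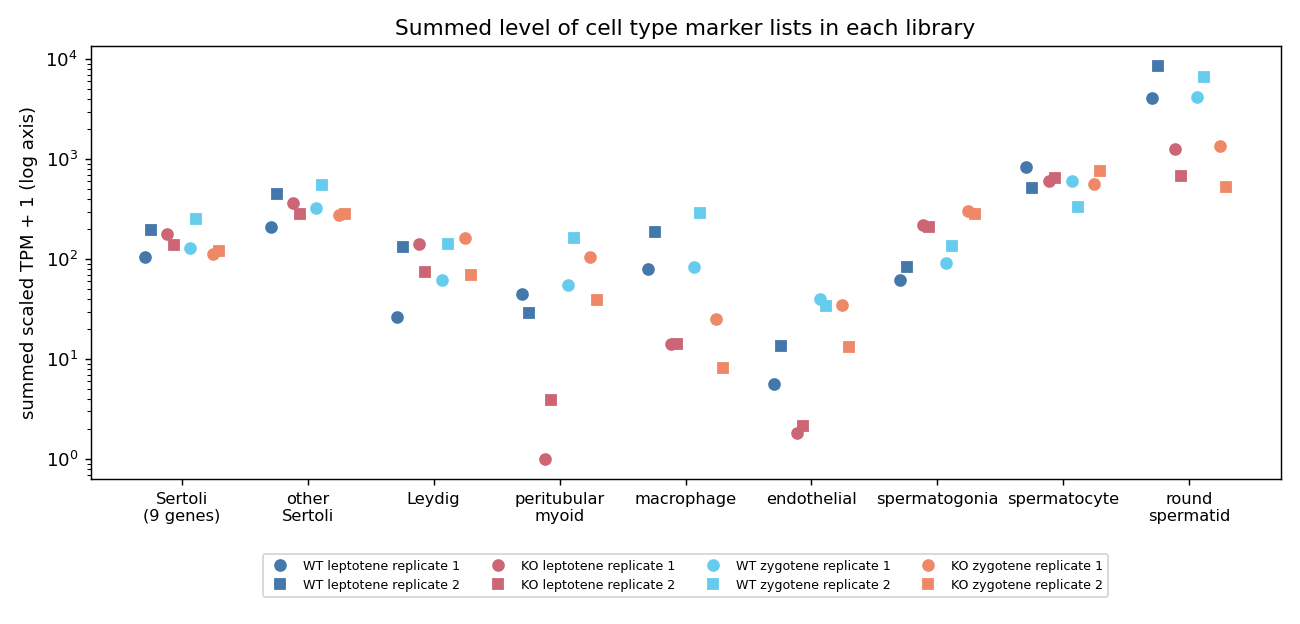
Summed scaled TPM of reference transcripts, plus 1 (log y axis), of the 9 Sertoli genes, the other 24 Sertoli genes and 7 lists of other cell type markers in each of the 8 libraries (colours for groups, circles for replicate 1 and squares for replicate 2). The Sertoli sums of WT and KO overlap, while the macrophage and round spermatid sums of WT lie above those of KO.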

How the data were processed

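TRIzol RNA was made into libraries side by side with a directional kit, per the labels' protocols. HISAT2, DESeq2 and mm10 are named per the submitters' processing notes. Per the file headers, the authors ran StringTie 2.1.2 on each library separately, with Ensembl release 89 as guide and without a strand option, and deposited coverage, FPKM and TPM per transcript. Without a strand option, antisense RNA cannot be told apart where genes overlap. Overlap of the 9 with other genes is not shown here. The files give no read numbers, and no counting intervals were computed.

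The 9 genes and all lists were chosen with earlier results of these data known. TPM was summed per reference gene name and scaled by median-of-ratios factors. A TPM of 1 or more in 2 or more libraries was required, which left 16929 genes for a test of log2(scaled TPM + 1) with limma 3.58.1 in R 4.3.3 (4 group means, 8 libraries, intensity trend, Benjamini-Hochberg, adjusted p under 0.05), after the script was tested on simulated data. Unannotated transcripts went to the GENCODE M21 gene on the same strand that held at least 50% of their exonic length (bedtools 2.31.1). All 9 members, called or the 4 most abundant genes of the further list, and the 5 nearest patterns are named, except items that are not reported here. Genes of the further list passing only an unadjusted p, the markers named by cell type, and the stage results of Amh and Sox9 were chosen after their values were seen. Other settings were pseudocounts of 0.1 and 5, other filters, scalings and units, fewer libraries, a replicate block and unannotated transcripts. Covered bases and a block by kind of library were added after seeing the data. Where the series' own design note counts 3 replications, 2 libraries a group are labelled.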

Additional observations from a re-analysis of the deposited data

How the results depend on the processing

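No member passed an adjusted p under 0.05 in any of the 5 comparisons under any of the 21 other settings. Of 389 values of 19 member differences under those settings 27 had the other sign, none of them past the threshold. The cause was not tested. With unannotated transcripts added, the leptotene differences of KO from WT were -0.077 (Sox9), 0.51 (Wt1), 0.75 (Amh) and 0.37 (Rhox5), Rhox5 at zygotene was -0.0032, and Sox9 between the stages in WT was -0.68. By covered bases, leptotene Wt1, Amh and Rhox5 were 0.45, 0.21 and 0.059. Leptotene Wt1 was 0.058 with a pseudocount of 5, 0.17 with quantile normalization and 0.011 with FPKM. With TPM as deposited, leptotene Cldn11 was -0.029 and zygotene Rhox5 -0.084. Zygotene Rhox5 was -0.0056 with a pseudocount of 5, and zygotene Sox9 was 0.020 with quantile normalization. Leaving out each library in turn gave, at leptotene, -1.24 to 1.07 (Wt1), -1.18 to 0.060 (Amh), -0.14 to 0.68 (Clu), -1.59 to 0.33 (Rhox5), -0.30 to 0.43 (Cldn11) and -0.77 to 0.31 (Inha). At zygotene it gave -1.18 to 0.38 (Gata4), -0.49 to 0.54 (Rhox5) and -2.09 to 0.027 (Inha). A group left with 1 library is assumed to vary like the others.

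Over all genes, KO against WT gave 189 calls at leptotene and 222 at zygotene. It gave 84 and 115 with no filter, 332 and 201 with unannotated transcripts added, 390 and 427 with TPM as deposited, 319 and 255 with a pseudocount of 0.1, 206 and 144 with a TPM of at least 5, 281 and 333 with no intensity trend, 918 and 631 by covered bases, and 0 and 0 in fits of the libraries of 1 comparison alone. Between the stages in WT it was 0, and 60 with no filter. For KO against WT, leaving out a library gave 0 to 254 and 0 to 1. Quantile normalization moved the median of all genes from -0.11 to 0.13 at leptotene and from -0.14 to 0.12 at zygotene. The labels do not say that same-numbered libraries share a source, and the correlation of their deviations ran from -0.14 to 0.21, so the numbers were not treated as a pairing. With the replicate block there were 1 and 0 calls among all genes and 0 among the 8 members in each comparison. A block by the kind of library, chosen after seeing the data, gave 440 and 391, and 0 among the members. Low coverage limits Amh, Sox9, Rhox5 and Fshr most.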
